A study of Mus musculus with 10 samples.

Results

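The Wnt ligand genes of skin were examined for binding of p63, a p53-family transcription factor that governs stratified epithelia. The group holds 10 genes (Wnt3, Wnt3a, Wnt4, Wnt5a, Wnt6, Wnt7a, Wnt7b, Wnt10a, Wnt10b and Wnt16), and its members are the p63 peaks inside these genes or within 50 kb of either end. A peak counted when any of its bases lay in that window. This rule selected 24 of the 8451 peaks in the deposited list, or 0.284%. The list was built from 2 chromatin immunoprecipitation (ChIP-seq) libraries made with the p63 antibody 4A4, 1 from each of 2 similar mouse keratinocyte lines, MK1 and MK2. The labels give no strain, genotype, age or treatment for the lines. They also name 6 histone-mark and 2 input libraries from MK1 and MK2, which were not analysed here. The list holds 1 set of positions from both lines together, without peak heights or read counts. No spread between lines, error or test can therefore be given, and the values below are descriptions. Whether the sequencing depth could show weaker sites is unknown, and a peak found in only 1 of the lines may have been dropped from the list. A gene without a peak is therefore a gene without a peak in this list only.

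Wnt proteins are secreted, lipid-modified signals. Outside the cell they bind Frizzled receptors together with the co-receptors Lrp5 and Lrp6, and in the canonical pathway this stabilises beta-catenin, which then activates target genes with the Tcf and Lef proteins. In skin, Wnt signals start the formation of hair follicles, drive the growth phase of the hair cycle and sustain proliferation of the basal epidermis, and several ligands are made by the keratinocytes themselves.

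Peaks were present in the window of 8 of the 10 genes and absent from that of Wnt3 and Wnt5a. Wnt6 had 6 peaks, Wnt3a and Wnt4 had 5 each, Wnt10a had 4, Wnt7b had 3, Wnt7a and Wnt16 had 2 each and Wnt10b had 1. These counts include 4 peaks that lay in the windows of both Wnt6 and Wnt10a. Of all 21779 protein-coding genes, 40.8% had at least 1 peak in the same window, and of the 10045 genes within the length range of the group (7.5 to 47.4 kb) 42.7% did. The median was 2.5 peaks per gene in the group and 0.0 over all protein-coding genes. Higher counts were less common among all genes: 9.73% had at least 3 peaks, as 5 of the 10 Wnt genes did, 4.78% had at least 4, as 4 did, and 2.15% had at least 5, as 3 did. Because the genes were chosen with earlier results of these data known, these shares are not tested against each other.

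**Figure D1:**
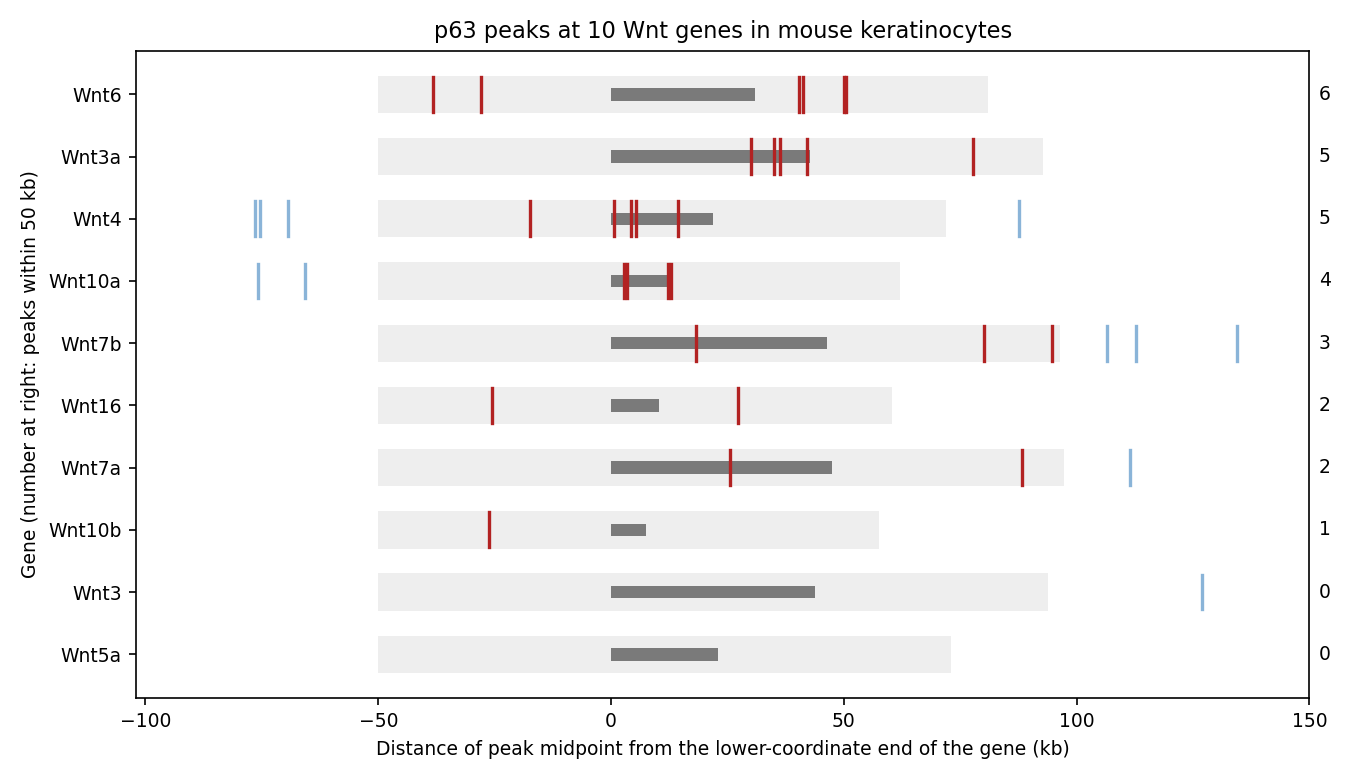
Map of p63 peaks at the 10 Wnt genes, one row per gene, with the distance of each peak midpoint from the lower-coordinate end of the gene on the horizontal axis (kb). Dark bars are gene bodies, pale bars the 50 kb windows, red ticks peaks inside the window and blue ticks peaks between 50 and 100 kb; the number at the right counts the red ticks, from 6 at Wnt6 to 0 at Wnt3 and Wnt5a.

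The peaks were unevenly shared out. Wnt4, Wnt3a and Wnt10a together accounted for 14 of the 24 peaks, and for 10 of the 12 that lay inside a gene of the group. These 3 genes are described first, with sequences that the gene table gives near or partly under their peaks. Sequences of the peaks themselves were not used here. For Wnt4 and Wnt3a, whose bodies held a peak shortly after the start of transcription, the 250 bases upstream of the start are shown. For Wnt10a, the 300 bases at the start of the non-coding RNA Gm32099 are shown, because they overlap one of its peaks. All 3 are from RefSeq on GRCm38.p6, the assembly of mm10, and are written 5′ to 3′ along the strand of the gene. Capitals in the first 2 mark matches of a loose p53-family pattern, namely CNNG, any 6 bases, and CNNG again, where N is any base. Capitals in the third mark the bases inside the peak.
Wnt4, chr4:137277385-137277634, plus strand: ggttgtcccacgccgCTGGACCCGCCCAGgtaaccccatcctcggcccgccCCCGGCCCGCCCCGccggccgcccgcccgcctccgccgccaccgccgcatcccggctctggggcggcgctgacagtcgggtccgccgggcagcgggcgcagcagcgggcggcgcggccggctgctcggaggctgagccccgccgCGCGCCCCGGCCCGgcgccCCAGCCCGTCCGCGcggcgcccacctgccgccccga
Wnt3a, chr11:59290752-59291001, minus strand: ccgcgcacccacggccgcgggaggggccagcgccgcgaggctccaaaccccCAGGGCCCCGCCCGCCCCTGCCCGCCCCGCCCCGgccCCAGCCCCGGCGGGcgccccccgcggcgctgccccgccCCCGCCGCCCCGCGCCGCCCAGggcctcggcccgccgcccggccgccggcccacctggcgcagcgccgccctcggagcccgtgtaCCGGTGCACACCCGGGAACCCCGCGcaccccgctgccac
Gm32099, chr1:74795030-74795329, minus strand: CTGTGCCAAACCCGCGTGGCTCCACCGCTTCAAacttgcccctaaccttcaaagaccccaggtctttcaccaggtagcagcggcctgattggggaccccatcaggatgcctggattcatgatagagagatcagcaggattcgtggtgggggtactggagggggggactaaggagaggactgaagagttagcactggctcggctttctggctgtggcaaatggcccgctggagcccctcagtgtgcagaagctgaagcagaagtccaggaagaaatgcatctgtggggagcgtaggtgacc

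The stretches upstream of Wnt4 and Wnt3a were rich in G and C, at 85.2% and 87.6%, beside a median of 52.4% over the 32851 listed promoters. The loose pattern, which reads the same on both strands and whose matches may overlap, occurred 4 times upstream of Wnt4 and 9 times upstream of Wnt3a. At least 1 match was present in 63.5% of all listed promoters of that length, at least 4 in 11.4% and at least 9 in 0.688%. The pattern is fixed only at C and G, and these shares were not matched for G and C content. Such counts were not particular to these 2 genes among Wnt genes: Wnt2b had 9 matches at 80.8% G and C, and Wnt1 and Wnt9a had 4 each. The listed stretch with most matches had 5 at Wnt11 (56.8% G and C) and 5 at Wnt5b (75.2%). The stricter pattern, with CATG in place of each CNNG, was in neither stretch and in 0.49% of all listed promoters. Neither stretch lay under a peak, and whether the matches have any part in binding was not tested. The Gm32099 stretch held neither pattern, beside 70.2% of listed stretches of 300 bases with the loose one and 0.712% with the strict one.

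Wnt4, a ligand best known for its role in kidney and female reproductive tract development and also expressed in epidermis, spans 137277635 to 137299501 on chromosome 4 (plus strand, gene ID 22417). It carried 4 peaks in its body and 1 below it. The first peak inside the gene, at 137278070 to 137278392, had its midpoint 0.596 kb downstream of the start site. It did not adjoin the GC-rich stretch shown for Wnt4, which ends at 137277634. Farther in, a couple of peaks lay at 137281694 to 137282155 and at 137282726 to 137283053, with 570 bp between them. The fourth, at 137292013 to 137292201, was 189 bp wide, the narrowest of the 24, and lay 14.472 kb downstream of the start. The peak outside the gene was the widest of the 5 at 526 bp and lay 17.316 kb upstream of the start, at 137260057 to 137260582. Wnt4 was the nearest protein-coding gene of all 5, and its body held 1.83 peaks per 10 kb, the highest density among the 10 genes.

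Wnt3a, a ligand that promotes hair growth signals and is widely used to activate the canonical pathway in culture, spans 59248036 to 59290751 on chromosome 11 (minus strand, gene ID 22416). It too had 4 peaks in its body, which lay in the part of the gene next to its start. The first, at 59290014 to 59290246, had its midpoint 0.621 kb downstream of the start. A couple followed at 59284175 to 59284543 and 59283017 to 59283226, with 948 bp between the peaks. The farthest of the 4, at 59277799 to 59278439, lay 12.632 kb downstream of the start and was 641 bp wide, the widest of the 24 and wider than 96.7% of the whole list. Wnt4 and Wnt3a thus shared an arrangement: a peak about 0.6 kb past the start, then a couple, then a single peak farther in. Of the 10045 protein-coding genes in the length range of the group, 0.179% (18 genes, these 2 included) had 4 or more peaks in the body. The likeness of the 2 arrangements was noticed after the positions were seen. The genes were also chosen with earlier results of these data known, so neither the likeness nor this share was tested.

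Wnt10a, a ligand of hair, tooth and sweat gland development whose human counterpart is mutated in ectodermal dysplasias, spans 74792019 to 74804176 on chromosome 1 (gene ID 22409). Its 4 peaks formed 2 couples. One couple lay inside the gene, at 74794531 to 74795016 (486 bp) and 74795297 to 74795712 (416 bp), with 280 bp between the peaks. The other lay just above the gene's upper end, at 74804221 to 74804460 (240 bp) and 74804670 to 74804940 (271 bp), with 209 bp between them. The gap from the one couple to the other was 8.5 kb, and the peaks inside the gene were wider than both outside it. The start of Gm32099, a non-coding RNA on the minus strand whose gene overlaps the lower part of Wnt10a, is annotated at 74795079, between the peaks of the inner couple. That start lay 63 bp above the near edge of the lower peak and 218 bp below the near edge of the upper one. The upper peak covered 33 bases of the 300-base stretch shown, and the stretch spanned 267 of the 280 bases between the peaks. It was the only one of the 24 peaks to touch a listed promoter stretch; over the 8166 peaks on chromosomes with listed starts, 3.76% did. Wnt10a was the nearest protein-coding gene of all 4 peaks, and its body held 1.65 peaks per 10 kb.

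Wnt6, a ligand of surface ectoderm, is the neighbour of Wnt10a, with 6.696 kb between the annotated genes. It had the highest count of the group, 6, yet held 0 peaks in its body (74754342 to 74785322 on chromosome 1, plus strand, gene ID 22420) and was the nearest protein-coding gene of none of the 6. Of these, 4 were the Wnt10a peaks described above, 9.209 to 19.348 kb above the upper end of Wnt6. The other 2 lay inside Cyp27a1, which encodes a sterol hydroxylase of bile acid synthesis. They stood 27.89 and 37.961 kb below the lower end of Wnt6, at 74726229 to 74726452 (224 bp) and 74716019 to 74716381 (363 bp). No peak lay between Wnt6 and Wnt10a. The high count of Wnt6 thus came from peaks in or next to other genes, and within 10 kb it fell from 6 to 2. The annotated body of Wnt6 starts 17.6 kb below its listed start site, and the table does not say which transcript sets it. Measured from that site, the Wnt10a peaks lay 22.881 to 32.913 kb downstream.

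The second neighbouring pair, Wnt3 and Wnt9b, stood in contrast to the first. Wnt3, a ligand of limb and hair follicle ectoderm, spans 103774175 to 103818021 on chromosome 11 (plus strand, gene ID 22415). Wnt9b, known from kidney tubule formation and not one of the 10, runs the other way on the minus strand, and its annotated body overlaps that of Wnt3 by 1.098 kb. Their listed starts are 24.4 kb apart. Across both genes and 50 kb on either side there were 0 peaks. The nearest one lay inside Nsf, a gene of membrane fusion, at 103900941 to 103901380, 82.92 kb above Wnt3. Both pairs thus place a Wnt gene beside another, but the 6 peaks of one window pair and the 0 of the other leave them at opposite ends of the range; this difference was not tested.

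**Figure D2:**
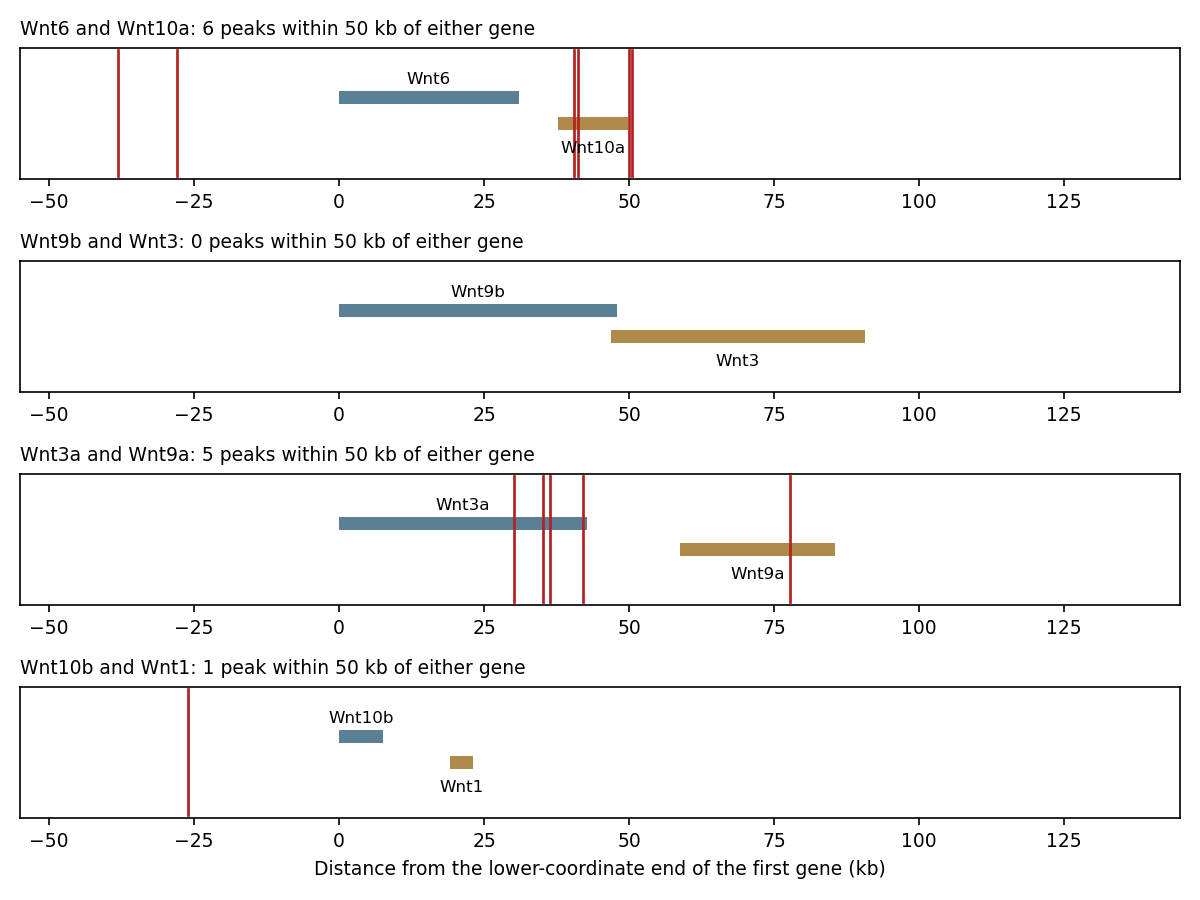
Maps of 4 pairs of neighbouring Wnt genes, with the distance from the lower-coordinate end of the first gene on the horizontal axis (kb). Bars are gene bodies and red lines are p63 peaks within 50 kb of either gene; the Wnt6 and Wnt10a panel shows 6 peaks, 4 of them at Wnt10a, and the Wnt9b and Wnt3 panel shows 0.

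Another 2 genes of the group have a Wnt gene as neighbour. Wnt9a lies 16.097 kb above Wnt3a, in the opposite orientation, with starts 16.2 kb apart. All 5 peaks in the window of Wnt3a were also in that of Wnt9a. Of these, 4 were inside Wnt3a and 1, at 59325660 to 59325991, was inside Wnt9a, while 0 lay between the genes. Wnt10b and Wnt1 lie 11.65 kb apart, again in opposite orientation, and shared their only peak, which lay inside a different gene. In the 3 pairs whose annotated genes do not overlap, therefore, no peak was found between the genes. These gaps are short, at 6.696, 16.097 and 11.65 kb, and the share of other such gaps without a peak was not computed.

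Wnt7b, a ligand made in embryonic epithelia and hair follicles, spans 85535437 to 85581821 on chromosome 15 (gene ID 22422). It had 1 peak in its body, at 85553464 to 85553737 (274 bp), and 2 above its upper end, at 85615267 to 85615766 (500 bp) and 85629987 to 85630433 (447 bp). The last of these, 48.166 kb from the gene, was the farthest from its gene of all peaks counted. The next one out was also at Wnt7b, 59.9 kb away at 85641721 to 85641980, and was not counted. Still farther up lay peaks at 66.366 and 87.832 kb. Wnt7b remained the nearest protein-coding gene of every peak in this row except the outermost, whose nearest boundary was that of Ppara, a receptor of lipid metabolism. Within 100 kb Wnt7b therefore had 6 peaks, beside 3 within 50 kb and 1 within 10 kb.

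Wnt7a, which patterns the dorsal limb, spans 91363981 to 91411353 on chromosome 6 (minus strand, gene ID 22421). A single peak of 196 bp lay in its body at 91389327 to 91389522, 21.929 kb downstream of the start. The other, at 91452191 to 91452414, lay 40.838 kb above the gene, upstream of its start, and had Chchd4, a gene of mitochondrial protein import, as its nearest protein-coding gene. Both were narrower than the median of the list.

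Wnt16, known for its role in bone mass, spans 22288178 to 22298522 on chromosome 6 (plus strand, gene ID 93735) and had 1 peak on each side and none inside. The lower one, at 22262381 to 22262824 (444 bp), was 25.354 kb away and nearest to Cped1. The upper one, at 22315303 to 22315515 (213 bp), was 16.781 kb away, inside Fam3c. Wnt10b, an early signal of the hair placode, spans 98770712 to 98778206 on chromosome 15 (minus strand, gene ID 22410). Its 1 peak, at 98744477 to 98744719 (243 bp), lay 25.993 kb below it inside Arf3, which encodes a small GTPase of vesicle traffic. Neither gene had a peak in its body or within 10 kb, and neither was the nearest gene of any peak.

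Wnt5a, which signals mostly without beta-catenin and is made largely by the dermis in skin, spans 28504543 to 28527448 on chromosome 14 (gene ID 22418). It was the one gene of the 10 without a peak within 100 kb, and the nearest peak lay 133.5 kb away.

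**Figure D3:**
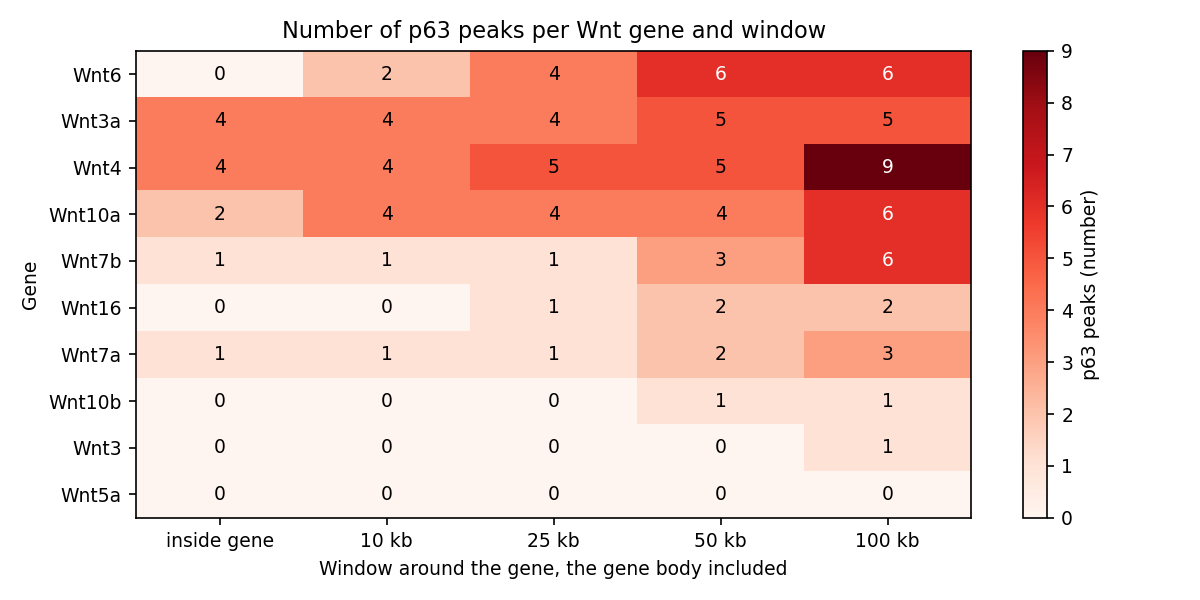
Number of p63 peaks per Wnt gene (rows) inside the gene and in windows of 10, 25, 50 and 100 kb around it (columns); colour and printed number both give the count. Wnt3a and Wnt4 already have 4 peaks inside the gene, Wnt6 has 0 there and 6 within 50 kb, and Wnt4 reaches 9 within 100 kb.

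The choice of window moved the number of genes with a peak less than the number of peaks. Within 10 kb 6 of the 10 genes had a peak, within 25 kb 7, and within 100 kb 9. The corresponding shares of all protein-coding genes were 21.4%, 29.8% and 55.3%. Between 50 and 100 kb lay 9 further peaks. Of these, 3 were below Wnt4, at 69.257 to 76.147 kb inside the non-coding gene Gm31820, and had Wnt4 as their nearest protein-coding gene. One of the 3, at 137200744 to 137201488, was 745 bp wide, wider than 98.4% of the list and wider than any peak within the 50 kb windows. Another lay 65.55 kb above Wnt4, nearest to Cdc42.

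**Figure D4:**
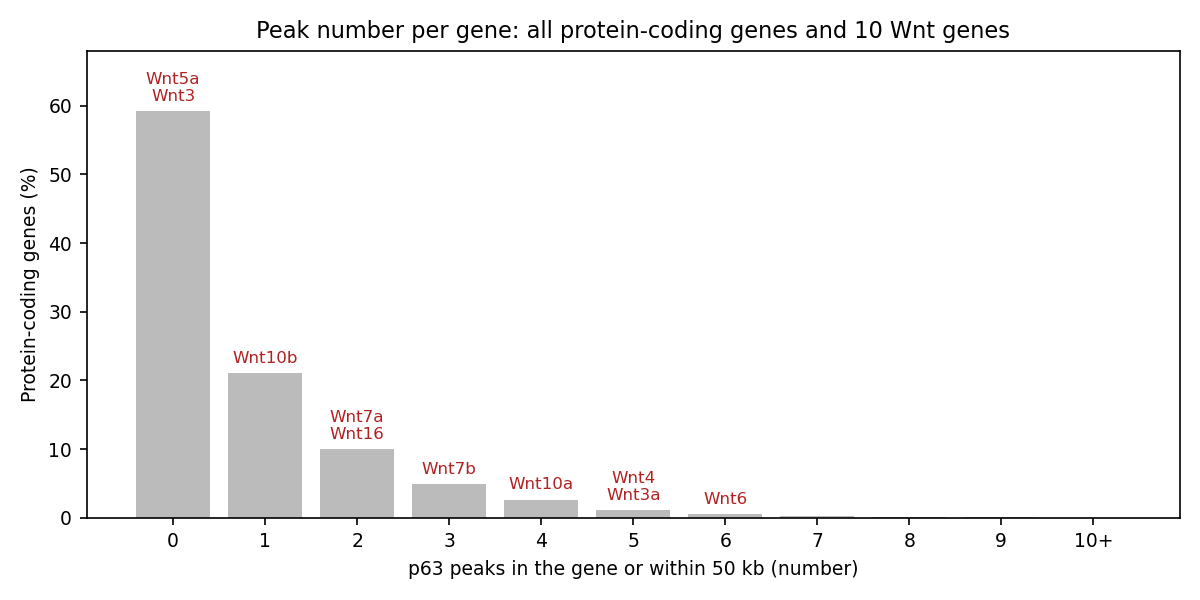
Share of all protein-coding genes (%, vertical axis) by the number of p63 peaks in the gene or within 50 kb (horizontal axis, 10 or more pooled). The 10 Wnt genes are written above the bar of their count: 59.2% of all genes have 0 peaks, as Wnt3 and Wnt5a do, and 0.565% have 6, as Wnt6 does.

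Among themselves, the 24 peaks were split evenly between the inside of a gene of the group (12) and the flanks (12). The 12 inside lay in 5 genes, Wnt4, Wnt3a, Wnt10a, Wnt7a and Wnt7b. Of protein-coding genes in the same length range, 12.0% had a peak in the body. A gene of the group was the nearest protein-coding gene of 17 of the 24 peaks, and these 17 belonged to those same 5 genes. The other 7 were nearest to Cyp27a1 (2 peaks), Arf3, Chchd4, Cped1, Fam3c and Wnt9a (1 each). Start sites were listed for 7 of the 10 genes, and the orientation of the 21 gene and peak combinations at these genes could be read: 15 lay downstream of the start and 6 upstream. The window includes the gene body, so at genes that start near an end its downstream side is the longer one. At Wnt6 the downstream peaks were those of Wnt10a. The same split over all genes was not computed. None of these 7 genes had a peak over the 300 bases at its own start.

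Part of the peaks of the group stood close together. Another peak lay within 1 kb of 8 of the 24 peaks (33.3%), beside 6.80% of the whole list, and within 10 kb of 14 (58.3%), beside 29.9%. The 8 peaks form 4 couples: 1 at Wnt4, 1 at Wnt3a and 2 at Wnt10a. The spacing within 1 kb was thus that of 3 genes and not of the group as a whole. Because the genes were chosen with earlier results of these data known, these shares were not tested against each other. Joining peaks within 1 kb left 20 sites, and joining those within 10 kb left 14. A listed start of any gene lay within 1 kb of 4 of the 24 peaks (16.7%), beside 7.56% of the peaks with listed starts on their chromosome. These 4 were the first peaks inside Wnt4 and Wnt3a and the inner couple of Wnt10a, both of which lay near the same start, that of Gm32099. The 24 peaks were selected for lying in or near genes and the whole list was not, so these shares are not like for like.

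Width is the only other measure in the list. Its median over the 24 peaks was 325.5 bp (quartiles 230.8 and 444.8 bp, range 189 to 641 bp), and that of the whole list was 305 bp (quartiles 242 and 392 bp). Of the 24 peaks, 13 were wider than the median of the list. Inside the genes of the group the median was 325.5 bp and outside them 301.5 bp, with overlapping ranges of 189 to 641 bp and 213 to 526 bp.

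**Figure D5:**
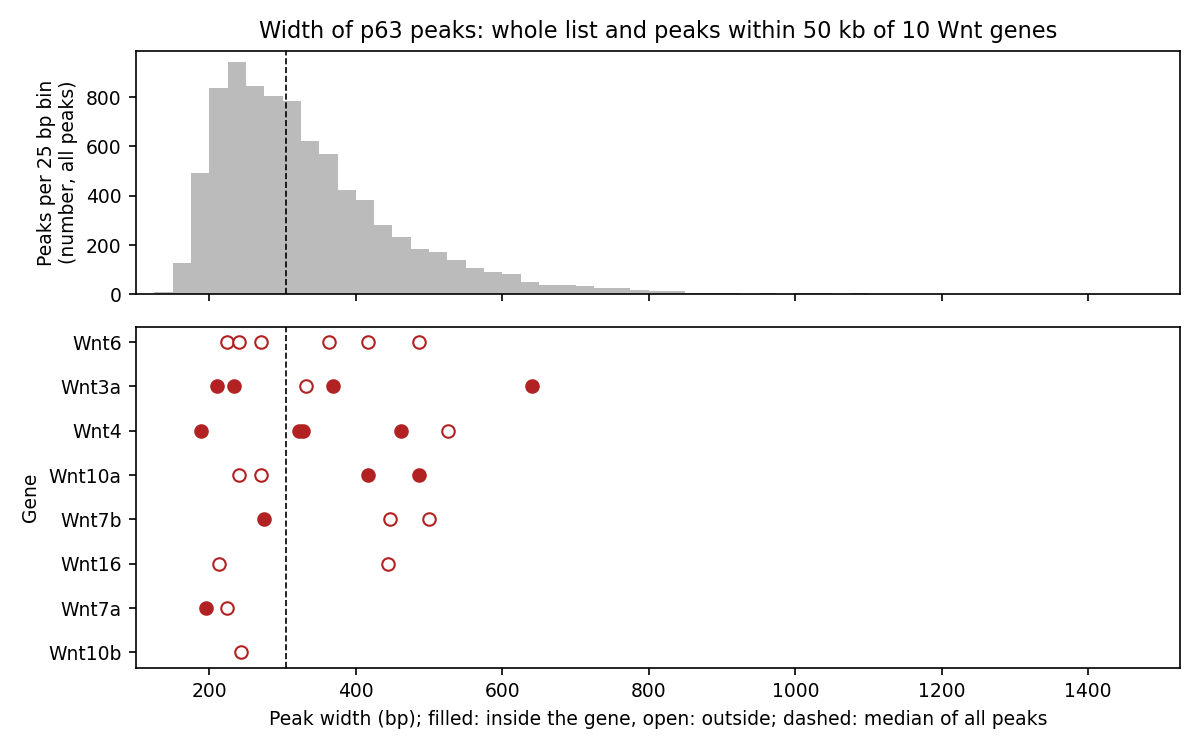
Width of p63 peaks (bp, horizontal axis) in the whole list (upper panel, number of peaks per 25 bp) and at the Wnt genes with a peak (lower panel, filled circles inside the gene, open circles outside). The dashed line marks the list's median of 305 bp; the Wnt gene peaks lie on both sides of it, from 189 to 641 bp, and the peaks shared by Wnt6 and Wnt10a appear in both rows.

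Of the other 9 Wnt genes of the mouse, 5 had a peak within 50 kb, beside the general 40.8%. For Wnt9a and Wnt1 every one of these peaks was shared with a gene of the group. Wnt2b, Wnt5b and Wnt11 had 1 peak each that no gene of the group shared. That of Wnt2b lay 8.748 kb below the gene and inside St7l, although the nearest boundary was that of Wnt2b. That of Wnt5b lay inside its 112.3 kb body, with Fbxl14 as the gene of the nearest boundary. Wnt2, Wnt8a, Wnt8b and Wnt9b had 0. The median was 1.0 peak per gene among these 9, beside 2.5 among the 10 described above, and the difference was not tested.

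The wider pathway was read from 7 lists with 60 genes, all of which matched the gene table. Of these, 30 (50.0%) had a peak within 50 kb, beside 40.8% of all protein-coding genes, and 8 (13.3%) had at least 3, beside 9.73%. The lists include genes far longer than the ligands, and a longer gene has a larger window.

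Among the genes that process the ligands, all 3 had a peak. Porcn, whose product attaches the lipid that Wnt proteins need for secretion, had 4 peaks, 2 of them inside its 12.7 kb body. It was the nearest gene of 2 of the 4. Wls, which carries Wnt proteins to the cell surface, and Notum, which removes the lipid again, had 1 each. The Notum peak lay 46.9 kb away and was nearest to another gene. Of the 10 Frizzled receptor genes 5 had a peak, and Fzd6, which orients hair follicles, had the most with 2. Among the 5 co-receptor genes, 3 had a peak, with 4 inside the 349.0 kb body of Ror1, a receptor of Wnt5a.

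R-spondins amplify Wnt signals through Lgr receptors by holding back the ubiquitin ligases Rnf43 and Znrf3. None of the 4 R-spondin genes had a peak, while 4 of the 5 genes of their receptors and these ligases did, with 3 peaks inside Rnf43. Over these 9 genes together the share was 44.4%, near the 40.8% of all protein-coding genes, and the split was not tested. Of 15 inhibitor genes 6 had a peak, and Dkk3, a divergent member of the Dickkopf family, had 3 in its body. Inside the cell, 6 of 10 Dishevelled and destruction complex genes had a peak. Ctnnb1, which encodes beta-catenin, had 4, of which 1 was in its body, and was the nearest gene of 2. Gsk3a, which encodes a kinase of the complex, had 5, none in its body and none with Gsk3a as the nearest gene. Of 8 nuclear effector genes 3 had a peak: Tcf7l1, a repressor of Wnt targets in skin stem cells, had 4, Bcl9l, a beta-catenin cofactor, had 4, and Tcf7 had 1. Tcf7l1 held 2 of its peaks in its body and had the nearest boundary for 3. Bcl9l held 3 in its body and had the nearest boundary for 2.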

How the data were processed

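The deposited p63 list has 3 columns (chromosome, start, end) and 8451 peaks. Per the labels, the authors made it by IDR on the MK1 and MK2 p63 libraries, which keeps peaks ranked alike in both. Libraries were sequenced as 50 bp single-end reads. Bowtie 1.1.1, SAMtools 1.1 and build mm10 are listed in the submitters' processing notes. The peak caller and thresholds were not given in the sources used here. Single-end fragment ends are inferred, so a peak edge marks a binding site only roughly.

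Starts were converted to 1-based positions. Genes, start sites and promoter stretches came from RefSeq tables of GRCm38.p6, with the coordinates of mm10. A total of 340 gene rows on unplaced scaffolds was left out. Listed starts covered 7 of the 10 genes. No genome was used, so exons, introns and peak sequences are not reported. A peak's distance to a gene is from its nearer edge to the nearer gene end. Distances to start sites and nearest genes use midpoints, except those to the start of Gm32099, which are from peak edges. The nearest gene is the one with the boundary closest to the midpoint, even where the peak lies inside another gene. Named were all Wnt genes, the nearest genes of the 24 peaks, and pathway genes with at least 3 peaks or the most of their list. Wls, Notum, Tcf7, St7l and nearest genes of other peaks were added after their values were seen. Genes, lists and rules were chosen with earlier results of these data known. Counting was checked on simulated data, with Python 3.11.15 and pandas 2.3.3.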

Additional observations from a re-analysis of the deposited data

How the results depend on the processing

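No paired analysis was possible because the list gives 1 set of positions kept from MK1 and MK2 by IDR. For the same reason neither line could be left out. Of 42 alternative values of the main counts, 32 stayed within 1.5-fold, and of 60 alternative counts of single genes 38 did. The others follow from counting fewer peaks or wider windows. With a peak counted only for its nearest protein-coding gene, 5 of the 10 genes had a peak instead of 8, and 3 other Wnt genes instead of 5. That rule goes by gene boundary, so it drops Wnt5b, which holds its peak, and keeps Wnt2b, whose peak lies inside St7l. With a window of 10 kb the group had 14 peaks instead of 24, and 3 other Wnt genes had a peak. With only peaks of at least the median width, the group had 13 peaks, Wnt6 and Wnt10a together 3 instead of 6, 3 other Wnt genes had a peak, and 18 pathway genes instead of 30; Wnt3a then had 3 peaks instead of 5 and Wnt10a 2 instead of 4. Joining peaks within 10 kb left 14 sites. With a window of 100 kb, Wnt3 and Wnt9b together had 1 peak instead of 0. Counting midpoints changed none of the main counts. Measured from the start site, 6 of the 7 genes with a listed start had a peak. The planned search of peak sequences was not run.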

Other observations

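Beyond the windows of the 10 genes, the stretch above Wnt9a held a group of 6 peaks whose nearest protein-coding gene was Snap47, a gene of the membrane fusion machinery. They lay 69.212 to 88.287 kb above Wnt9a, 4 of them inside Snap47, and were 192 to 591 bp wide. They were chosen for mention after their positions were seen. The single peak near Wnt11, at 98816022 to 98816455 on chromosome 7, was 18.629 kb below that gene and touched the listed promoter stretch of the non-coding gene Gm39054, with its midpoint 107 bp from that start.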
